A study of Mus musculus with 15 samples.

Results

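The genes described here encode cytoplasmic actin and 8 proteins that bind it. They are fascin (Fscn1), MARCKS-like 1 (Marcksl1), coactosin-like 1 (Cotl1), coronin 1A (Coro1a), the thymosins beta 4 and beta 10 (Tmsb4x, Tmsb10), profilin 1 (Pfn1), cofilin 1 (Cfl1), and beta- and gamma-actin (Actb, Actg1). They are 10 of the 23420 genes in the deposited expression table, taken by symbol, and all 10 were among the 11190 genes tested. They were chosen by symbol, with the high level of Fscn1 in Fraction 1 and other measured levels of these libraries already known, so their levels are given as a description without a test.

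Actin monomers assemble into filaments that push the cell membrane, carry tension and build the contact between a B cell and an antigen-presenting or helper T cell. Profilin and the thymosins hold monomers, profilin handing them on to growing filament ends and the thymosins keeping them in reserve. Cofilin severs old filaments, coronin and coactosin-like protein bind filaments and affect their turnover, MARCKS-like proteins link them to membrane phospholipids, and fascin packs them into stiff parallel bundles of the kind that fill filopodia. Germinal centre B cells move between a dark zone, where they divide, and a light zone, where they take up antigen and meet T cells, and some leave as plasmablasts that secrete antibody.

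RNA was measured in 15 libraries, 3 for each of 5 groups, each made from 100 mouse cells sorted from draining lymph nodes on day 12. Donor B cells carried CD45.1 and the B1-8hi knock-in (KI/+), an antigen receptor that recognises the hapten NP, and were placed in C57BL6 recipients that then received NP-CGG with CFA, a protein-coupled hapten in adjuvant. For 4 groups the donors also carried a Bcl6-YFP (KI/+) reporter, and the cells were B220+ CD45.1+ CD38lo GL7hi. The dark zone group (DZ) was CXCR4hi CD86lo. The light zone was CXCR4lo CD86hi and was divided into Fraction 3 (CD69lo Bcl6hi), Fraction 2 (CD69hi Bcl6hi) and Fraction 1 (CD69hi Bcl6lo). The fifth group, GC-PB, held germinal centre derived plasmablasts (CD45.1+ CD138hi CD44hi tdTomato+) from donor cells that carried B1-8hi (KI/+), the transgene S1pr2-ERT2cre Tg and the reporter ROSA-Ai14 (KI/+), and their recipients were treated with tamoxifen on days 6, 7 and 8, which switches on tdTomato in cells that express the S1pr2-driven Cre. GC-PB therefore differs from the other groups in donor genotype and in tamoxifen as well as in cell type. Each replicate is its own library preparation. No label ties replicates to separate animals, so a p-value here measures library-to-library spread that may be technical. Donor age is not given.

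A level below is the deposited value divided by its library's total without the ribosomal precursor Rn45s and multiplied by 100000. A difference is on the log2(level + 1) scale with the standard error (SE) from limma over all 15 libraries. Deposited totals ran from 27942 to 115088 and their group means stood at a ratio of 2.75 for Fraction 1 to Fraction 2. Most values were whole multiples of 1 constant per library and are read here as 184103 to 376992 molecules, which the labels do not state. Fraction 1 and GC-PB differ from the other groups in a second way. Xist, made from the inactive X chromosome, lay at 23.2 to 37.4 in these 6 libraries and at 0 in the 9 others, while the Y-linked Ddx3y lay at 0 to 0.105 in these and at 10.1 to 16.1 in the others. That is the pattern of female cells in these 6 libraries and of male cells in the 9 others, and the labels do not give sex. Fraction 1 thus cannot be taken to share its donors with Fractions 2 and 3. A difference between Fraction 1 and Fraction 2 cannot be told apart from whatever else follows that divide. The other 3 comparisons stay on 1 side of it. The germinal centre marker list (6 genes) summed to 195 to 206 in DZ, 203 to 222 in Fraction 3, 164 to 178 in Fraction 2, 37.8 to 61.8 in Fraction 1 and 10.2 to 13.4 in GC-PB, where Bcl6 was at 0; the plasma cell list (7 genes) summed to 7430.4 to 10734 in GC-PB and 74.7 to 197 elsewhere, so both lists set GC-PB apart as labelled, and the first was also low in Fraction 1.

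Fscn1 was the member with the widest range, as a ratio, among the germinal centre groups, 43.3 in Fraction 1 against 0.784 in DZ, and was low again in GC-PB. The other 9 members had their lowest mean in GC-PB. At equal totals Cotl1, Coro1a, Tmsb4x, Tmsb10, Cfl1, Actb and Actg1 had their highest mean in Fraction 3, and Fscn1, Marcksl1 and Pfn1 had theirs in Fraction 1. As deposited, all 10 had their highest values in Fraction 1. Together the 10 genes took 2.69% to 2.87% of the library total in DZ, 3.18% to 3.51% in Fraction 3, 2.84% to 2.93% in Fraction 2, 2.44% to 2.54% in Fraction 1 and 0.545% to 0.772% in GC-PB.

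**Figure D1:**
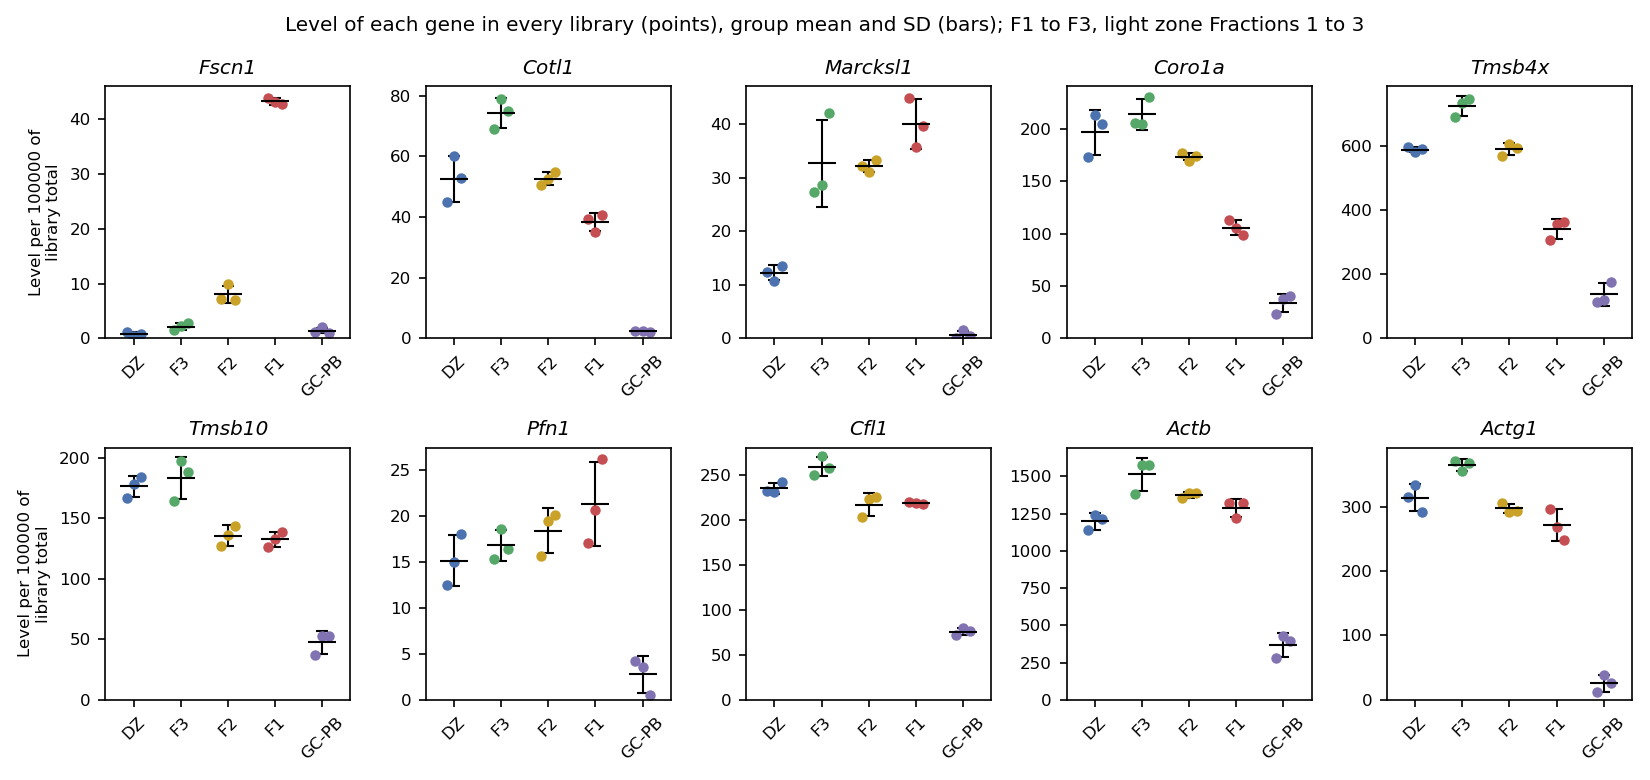
Level of each gene per 100000 of its library total (vertical axes, each starting at 0 and scaled to its gene) in every library of DZ, the light zone Fractions 3, 2 and 1 (F3, F2, F1) and GC-PB; points are libraries, the long bar is the mean and the whiskers are the SD over n = 3. Fscn1 stands at 42.7 to 43.9 in Fraction 1 and below 10 in all other libraries, and every gene but Fscn1 is lowest in GC-PB.

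Fscn1 (mm10 chr5:142960343-142973185, plus strand) encodes fascin, the filament-bundling protein. Its promoter is shown because Fscn1 is the member whose level differed most between light zone fractions. The stretch runs from 250 to 13 bases before the RefSeq transcription start (RefSeq, GRCm38.p6, chr5:142960105-142960342, plus strand) and ends where the annotated gene begins; capitals mark a TATAAA match 31 to 26 bases before the start.
Fscn1 promoter: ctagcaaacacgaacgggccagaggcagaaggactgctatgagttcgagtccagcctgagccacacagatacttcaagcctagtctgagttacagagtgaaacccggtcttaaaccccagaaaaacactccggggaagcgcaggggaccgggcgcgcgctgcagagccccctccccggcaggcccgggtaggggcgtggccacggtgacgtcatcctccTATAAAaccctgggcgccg
Of 32851 RefSeq promoters of 300 bases (250 before the start and 50 after), 13.6% hold TATAAA on either strand. RefSeq promoters were matched for 8 of the 10 members, all but Actb and Cotl1, and Fscn1 was the only one of the 8 with TATAAA. The other 7, Actg1, Cfl1, Coro1a, Marcksl1, Pfn1, Tmsb10 and Tmsb4x, hold the GC box GGGCGG on either strand, as do 35.7% of all promoters. A kappaB motif, searched on both strands, was found for Coro1a and Tmsb10 and in 26.8% of all promoters. Coro1a and Tmsb10 have alternative promoter windows, and a member counts where any of its windows matches, while the percentages are per promoter. The promoter windows were 61.7% G and C for Fscn1 against a median of 52.7% over all promoters. These matches describe the letters in the windows and show no binding.

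In DZ, Fscn1 levels were 1.24, 0.358 and 0.750 in libraries 1 to 3, which stand for 3, 1 and 2 molecules. Fraction 3 had 1.50, 2.27 and 2.74 (4, 5 and 6 molecules) and Fraction 2 had 7.17, 9.86 and 7.09 (23, 33 and 25 molecules). In Fraction 1 the levels were 43.9, 43.2 and 42.7 (144, 155 and 134 molecules). The 3 light zone fractions were thus fully separated, Fraction 1 above Fraction 2 and Fraction 2 above Fraction 3. In GC-PB the levels were 1.21, 2.04 and 1.07, from 2, 4 and 2 molecules. GC-PB overlapped with both DZ and Fraction 3, its neighbours in the order DZ, GC-PB, Fraction 3, Fraction 2, Fraction 1. Here and below, fewer cells with a transcript and less of it per cell cannot be told apart in pools of 100 cells.

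Means of Fscn1 were 0.784 ± 0.445 (SD, n = 3 here and below) in DZ, 2.17 ± 0.625 in Fraction 3, 8.04 ± 1.58 in Fraction 2, 43.3 ± 0.584 in Fraction 1 and 1.44 ± 0.526 in GC-PB. From Fraction 2 to Fraction 1 the difference was 2.31 ± 0.26, a ratio of 5.38 in molecules per library total with a 95% interval of 4.24 to 6.91. These intervals are exact (Clopper-Pearson) and cover counting error only. From Fraction 3 to Fraction 2 it was 1.52 ± 0.26 (3.78-fold, 2.16 to 7.07). Between DZ and Fraction 3 all 3 Fraction 3 libraries were higher, with a difference of 0.84 ± 0.26, but this rests on 15 against 6 molecules and the interval of the ratio runs from 1.02 to 8.77. The mean level in GC-PB was lower than in Fraction 1 by 30.1-fold (difference -4.20 ± 0.26), with an interval of 14.9 to 69.2 for the ratio of molecules. On the deposited scale the Fraction 1 to Fraction 2 difference was 3.52 and the GC-PB to Fraction 1 difference -4.60.

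Fscn1 is also known from mature dendritic cells, so markers of those cells are given beside it. Of 12 dendritic cell markers in the table, 4 (Ccl17, Clec9a, Cd209a, Clec10a) were at 0 in all 15 libraries. The list summed to 23.5 to 30.6 in DZ, 23.9 to 31.5 in Fraction 3, 18.3 to 21.5 in Fraction 2, 11.7 to 20.5 in Fraction 1 and 46.8 to 62.3 in GC-PB. Cst3 was its largest part in every group. Itgax, Zbtb46 and Ccr7 had most molecules in Fraction 1: Itgax gave 1 there and 0 in the other groups, Zbtb46 gave 5 beside 0 or 1, and Ccr7 gave 12 beside 0 to 5, while Fscn1 gave 433. Ccl22, a chemokine, was at 0 in the other 4 groups and gave 45 molecules in Fraction 1 (mean level 4.55). Other markers of the list had fewer molecules in Fraction 1 than in Fraction 2: Cst3 (53 beside 116), Flt3 (28 beside 64), Xcr1 (9 beside 20) and Siglech (0 beside 3). The part of these cells in the Fscn1 level was not tested. The macrophage list (10 genes) summed to 0.61 to 1.59 in Fraction 1, and Cd3e, Cd4 and Il7r were at 0 in all libraries.

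The genes whose profile over the 15 libraries was most like that of Fscn1 were Mrto4 (Pearson r = 0.984), Batf (0.982), Birc3 (0.972), Rsl1d1 (0.963) and Rrp9 (0.963). They were the top 5 of 5585 genes with a mean level of at least 2.49, the median of the tested genes. These r values describe 15 libraries in 5 groups, in which all genes share each library's total, and carry no p. An r does not compare the sizes of differences. The genes named below as most like the other members all had their lowest mean in GC-PB, as those members did. Batf, a transcription factor of the AP-1 family, had a mean level of 0.646 ± 0.253 in DZ, 11.4 ± 2.18 in Fraction 2, 54.2 ± 9.24 in Fraction 1 and 0.929 ± 0.369 in GC-PB. Birc3, an inhibitor of apoptosis that acts in NF-kB signalling, had 13.7 ± 1.08 in Fraction 2 and 25.9 ± 1.68 in Fraction 1. Mrto4, Rsl1d1 and Rrp9 encode nucleolar proteins of ribosome assembly, and stood at 18.2 ± 0.881, 37.7 ± 4.92 and 11.2 ± 1.54 in Fraction 1. None of the 5 is in the lists of actin genes used below.

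**Figure D2:**
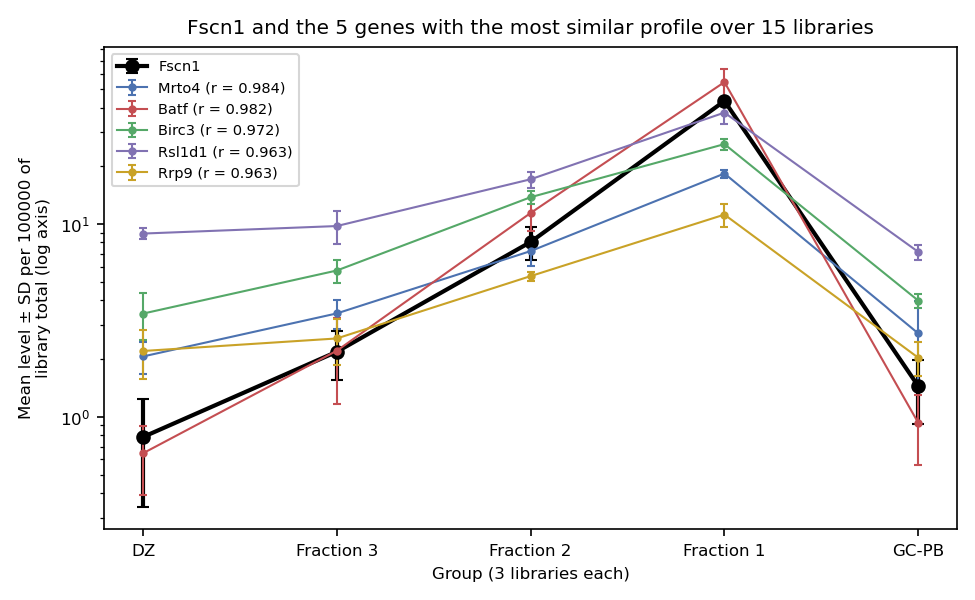
Mean level per 100000 of the library total (vertical log axis; error bars, SD over n = 3) of Fscn1 and of the 5 genes with the highest Pearson r with it, over the 5 groups on the horizontal axis. All 6 genes are highest in Fraction 1 and second highest in Fraction 2.

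Marcksl1 (mm10 chr4:129513581-129515985, plus strand) encodes a membrane-linked actin-binding protein related to MARCKS. Its levels were 12.4, 10.7 and 13.5 in DZ, 27.4, 28.6 and 41.98 in Fraction 3, 32.1, 31.1 and 33.2 in Fraction 2, 44.8, 35.6 and 39.6 in Fraction 1 and 0, 1.53 and 0.535 in GC-PB. All light zone libraries lay above all DZ libraries, while the range of Fraction 3, with library 3 above the other 2, overlapped with those of Fraction 2 and Fraction 1. Means were 12.2 ± 1.40 in DZ, 32.6 ± 8.10, 32.1 ± 1.05 and 40.01 ± 4.60 in Fractions 3, 2 and 1, and 0.689 ± 0.777 in GC-PB. The difference from DZ to Fraction 3 was 1.33 ± 0.24, that from Fraction 3 to Fraction 2 was 0.00 ± 0.24, and that from Fraction 2 to Fraction 1 was 0.30 ± 0.24. Unlike Fscn1, Marcksl1 thus had its main difference between the zones and only a small one within the light zone. In GC-PB only 0, 3 and 1 molecules were seen, and the 0 in library 1 allows a level of up to 1.81 (3 molecules, counting error only). The mean level in GC-PB was lower than in Fraction 1 by 58.1-fold, and by 149.5-fold without library 2 of GC-PB. The counting interval, which belongs to the ratio of pooled molecules, was 21.2 to 202. The profiles most like that of Marcksl1 were those of Ncf1, a subunit of the phagocyte NADPH oxidase, and Ptma, which encodes prothymosin alpha (r = 0.98 for both).

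Cotl1 (mm10 chr8:119809222-119840544, minus strand) encodes coactosin-like protein, which binds filaments. Its levels were 44.8, 60.1 and 52.8 in DZ, 68.99, 78.99 and 74.8 in Fraction 3, 50.5, 52.6 and 54.7 in Fraction 2, 39.3, 35.1 and 40.5 in Fraction 1 and 2.41, 2.55 and 2.14 in GC-PB. Fraction 3 stood above every other group without overlap, DZ and Fraction 2 overlapped, and Fraction 1 was lower than both. Means were 74.3 ± 5.03 in Fraction 3, 52.6 ± 2.09 in Fraction 2, 38.3 ± 2.85 in Fraction 1, 52.6 ± 7.63 in DZ and 2.37 ± 0.209 in GC-PB, the last from 4, 5 and 4 molecules. The differences were 0.50 ± 0.13 from DZ to Fraction 3, -0.49 ± 0.13 from Fraction 3 to Fraction 2 and -0.45 ± 0.13 from Fraction 2 to Fraction 1. Within the light zone, Cotl1 and Fscn1 thus ran in opposite order. GC-PB was lower than Fraction 1 by 16.2-fold (difference -3.54 ± 0.13), with a counting interval of 9.31 to 30.5 for the ratio of molecules. Ccdc50 (r = 0.994) and Sypl (r = 0.99) had the profiles most like it.

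Coro1a (mm10 chr7:126699773-126707787, minus strand) encodes coronin 1A, a filament-binding protein of blood cells that also binds the Arp2/3 complex. Its levels were 173, 214 and 205 in DZ, 206, 205 and 231 in Fraction 3, 177, 170.0 and 174 in Fraction 2, 113, 106 and 98.6 in Fraction 1 and 23.5, 37.8 and 40.1 in GC-PB. DZ overlapped with Fractions 3 and 2, and Fraction 1 and GC-PB each stood below all the groups before them. Means were 197 ± 21.4, 214 ± 14.5, 174 ± 3.47, 106 ± 7.27 and 33.8 ± 8.98 in the same order. The difference was 0.12 ± 0.14 from DZ to Fraction 3, -0.30 ± 0.14 from Fraction 3 to Fraction 2, -0.71 ± 0.14 from Fraction 2 to Fraction 1 and -1.65 ± 0.14 from Fraction 1 to GC-PB, which was 3.13-fold lower. Id3, an inhibitor of E proteins (r = 0.989), and Setd2, a histone methyltransferase (r = 0.988), had the most similar profiles.

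Tmsb4x (mm10 chrX:167207093-167209315, minus strand) and Tmsb10 (chr6:72957347-72958748, minus strand) encode small proteins that hold actin monomers. Tmsb4x levels were 597, 581 and 590.3 in DZ, 691, 735 and 748 in Fraction 3, 569.9, 607 and 594 in Fraction 2, 306, 356 and 362 in Fraction 1 and 113, 121 and 177 in GC-PB. DZ and Fraction 2 overlapped, Fraction 3 stood above them, and Fraction 1 and then GC-PB stood below. Its means were 589 ± 7.76, 725 ± 29.98, 590.2 ± 18.6, 342 ± 30.7 and 137 ± 34.9 in that order. The difference from Fraction 2 to Fraction 1, -0.79 ± 0.12, was the largest on the lower side among the members in that comparison, and GC-PB was a further 2.49-fold lower.

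Tmsb10 levels were 167, 178 and 184 in DZ, 164, 197 and 188 in Fraction 3, 127, 136 and 144 in Fraction 2, 127, 133 and 138 in Fraction 1 and 36.8, 53.1 and 52.4 in GC-PB. They formed an upper pair of groups (DZ and Fraction 3, overlapping), a middle pair (Fractions 2 and 1, overlapping) and GC-PB below. The difference from Fraction 3 to Fraction 2 was -0.43 ± 0.12, that from Fraction 2 to Fraction 1 was -0.03 ± 0.12, and GC-PB was 2.79-fold lower than Fraction 1. So the thymosin genes had their main light zone difference at different places, Tmsb4x between Fractions 2 and 1 and Tmsb10 between Fractions 3 and 2. Within each library, the log2 level of Tmsb4x less that of Tmsb10 was 1.74 ± 0.08 in DZ, 1.99 ± 0.09 in Fraction 3, 2.12 ± 0.07 in Fraction 2, 1.36 ± 0.08 in Fraction 1 and 1.52 ± 0.29 in GC-PB (SD, n = 3). This quantity does not depend on the library total. It was lower in every Fraction 1 library than in every library of DZ, Fraction 3 and Fraction 2, and it says nothing of the proportion of the 2 proteins. Tmsb4x lies on the X chromosome and Tmsb10 on chromosome 6. Fraction 1 is also set apart from DZ, Fraction 3 and Fraction 2 by Xist and Ddx3y. The part of that divide in the Tmsb4x values was not tested. The profiles closest to Tmsb4x were those of Ms4a1, which encodes CD20 (r = 0.994), and Actr2, a subunit of Arp2/3 (0.991); those closest to Tmsb10 were of Eif3f (0.986) and Spib (0.983).

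Pfn1 (mm10 chr11:70651850-70654644, minus strand) encodes profilin 1, which delivers monomers to growing filament ends. Its levels were 12.4, 15.02 and 17.99 in DZ, 15.4, 18.6 and 16.4 in Fraction 3, 15.6, 19.4 and 20.1 in Fraction 2, 17.1, 20.6 and 26.2 in Fraction 1 and 4.22, 3.57 and 0.535 in GC-PB. Each germinal centre group overlapped with the next, and all their libraries stood above those of GC-PB. The means were 15.2 ± 2.77, 16.8 ± 1.65, 18.4 ± 2.44, 21.3 ± 4.58 and 2.78 ± 1.97, and the differences up to Fraction 1 were 0.15, 0.12 and 0.19, each ± 0.31. GC-PB was 7.66-fold lower than Fraction 1, on 7, 7 and 1 molecules, with a counting interval of 4.59 to 14.1 for the ratio of molecules. Rbmxl1 (r = 0.97) and Gm13826 (r = 0.966) had the most similar profiles.

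Cfl1 (mm10 chr19:5490455-5495201, plus strand) encodes cofilin 1, which severs filaments. Its levels were 233, 231 and 242 in DZ, 250.4, 271 and 258 in Fraction 3, 203, 223 and 226 in Fraction 2, 220.1, 219 and 218 in Fraction 1 and 71.8, 80.1 and 76.5 in GC-PB. Fraction 3 was highest without overlap, Fractions 2 and 1 overlapped, and GC-PB was far below them. The difference was 0.14 ± 0.08 from DZ to Fraction 3, -0.26 ± 0.08 from Fraction 3 to Fraction 2 and 0.01 ± 0.08 from Fraction 2 to Fraction 1, with means of 218 ± 12.3 and 219 ± 1.12 in the last pair. GC-PB, at 76.2 ± 4.18, was 2.88-fold lower than Fraction 1. Actr3, a subunit of Arp2/3 (r = 0.995), and Nap1l1, a histone chaperone (0.994), followed it most closely.

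Actb (mm10 chr5:142903115-142906754, minus strand) and Actg1 (chr11:120345690-120348542, minus strand) encode the beta and gamma forms of cytoplasmic actin, the filament subunit itself. Among the 8 members with a matched promoter, only that of Actg1 holds the CArG box, the site of serum response factor, which is known to control actin genes. Of all RefSeq promoters 1.63% hold it on either strand. No promoter was matched for Actb, so Actb was not searched for it. The part shown runs from 150 to 48 bases before the RefSeq start (RefSeq, GRCm38.p6, chr11:120348543-120348645, minus strand, printed 5′ to 3′), with the CArG box 90 to 81 bases before the start in capitals.
Actg1 promoter: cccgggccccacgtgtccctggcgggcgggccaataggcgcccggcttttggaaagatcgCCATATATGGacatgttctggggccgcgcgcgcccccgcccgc

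Actb levels were 1137, 1244 and 1211 in DZ, 1384, 1579.6 and 1578 in Fraction 3, 1352, 1388 and 1386 in Fraction 2, 1324, 1219.5 and 1324 in Fraction 1 and 280.2, 429 and 395 in GC-PB. DZ lay below every Fraction 3 and Fraction 2 library, and GC-PB lay far below all. Means were 1197 ± 54.5, 1514 ± 112, 1375 ± 19.97, 1289 ± 60.2 and 368 ± 77.8 in the same order. The difference from DZ to Fraction 3 was 0.34 ± 0.11. That from Fraction 2 to Fraction 1 was -0.09 ± 0.11 at equal totals and 0.02 with median ratios, so its direction depends on the scale. GC-PB was lower than Fraction 1 by 3.50-fold (difference -1.83 ± 0.11).

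Actg1 levels were 315, 333 and 292 in DZ, 371, 355 and 368 in Fraction 3, 306, 292 and 293 in Fraction 2, 297, 269 and 248 in Fraction 1 and 12.1, 38.8 and 26.5 in GC-PB. The germinal centre groups spanned 248 to 371, with Fraction 3 highest and without overlap, and all GC-PB libraries lay under 39. Actg1 was 10.5-fold lower in GC-PB (25.8 ± 13.4) than in Fraction 1 (271 ± 24.3), a difference of -3.48 ± 0.22. The log2 level of Actg1 less that of Actb within a library was -1.94 ± 0.10 in DZ, -2.05 ± 0.14 in Fraction 3, -2.21 ± 0.06 in Fraction 2, -2.25 ± 0.14 in Fraction 1 and -3.97 ± 0.54 in GC-PB (SD, n = 3). It was lower in all 3 GC-PB libraries, at -4.54, -3.47 and -3.90, than in any germinal centre library, so the 2 actin messages differed unequally. Actb, Actg1 and Tmsb4x hold values that end in 0.5 of a molecule in some libraries. Actin, thymosin, profilin and cofilin genes have near-identical copies, how reads that match several of them were counted is not given in the sources used here, and the levels of these genes are uncertain to that extent. H2-DMa (r = 0.989) and Actr3 (0.988) had the profiles most like that of Actb, and Nap1l1 (0.992) and Wdr1, a cofactor of cofilin (0.991), those most like that of Actg1.

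Set side by side, 7 of the 10 members were higher in all 3 Fraction 3 libraries than in all 3 DZ libraries and none was lower, beside 7.87% and 6.43% of all tested genes. Coro1a, Tmsb10 and Pfn1 overlapped, and the median difference over the members was 0.26, beside 0.00 over all tested genes. In Fraction 2 against Fraction 3, only Fscn1 was higher without overlap and 6 (Cotl1, Coro1a, Tmsb4x, Tmsb10, Cfl1 and Actg1) were lower, beside 8.59% and 8.38% of all tested genes, with a median of -0.28 over the members and 0.00 over all. In Fraction 1 against Fraction 2, Fscn1 and Marcksl1 were higher and Cotl1, Coro1a, Tmsb4x and Actb lower, beside 11.9% and 16.3% of all tested genes, and both medians were -0.06. In GC-PB against Fraction 1 all 10 were lower without overlap, beside 26.7% of all tested genes lower and 16.1% higher, with a median of -2.28 over the members and -0.13 over all. The members were chosen with these contrasts in view, so nothing is read from the counts. Neighbouring comparisons share a group: a high Fraction 3 value enters the first with a plus sign and the second with a minus sign.

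**Figure D3:**
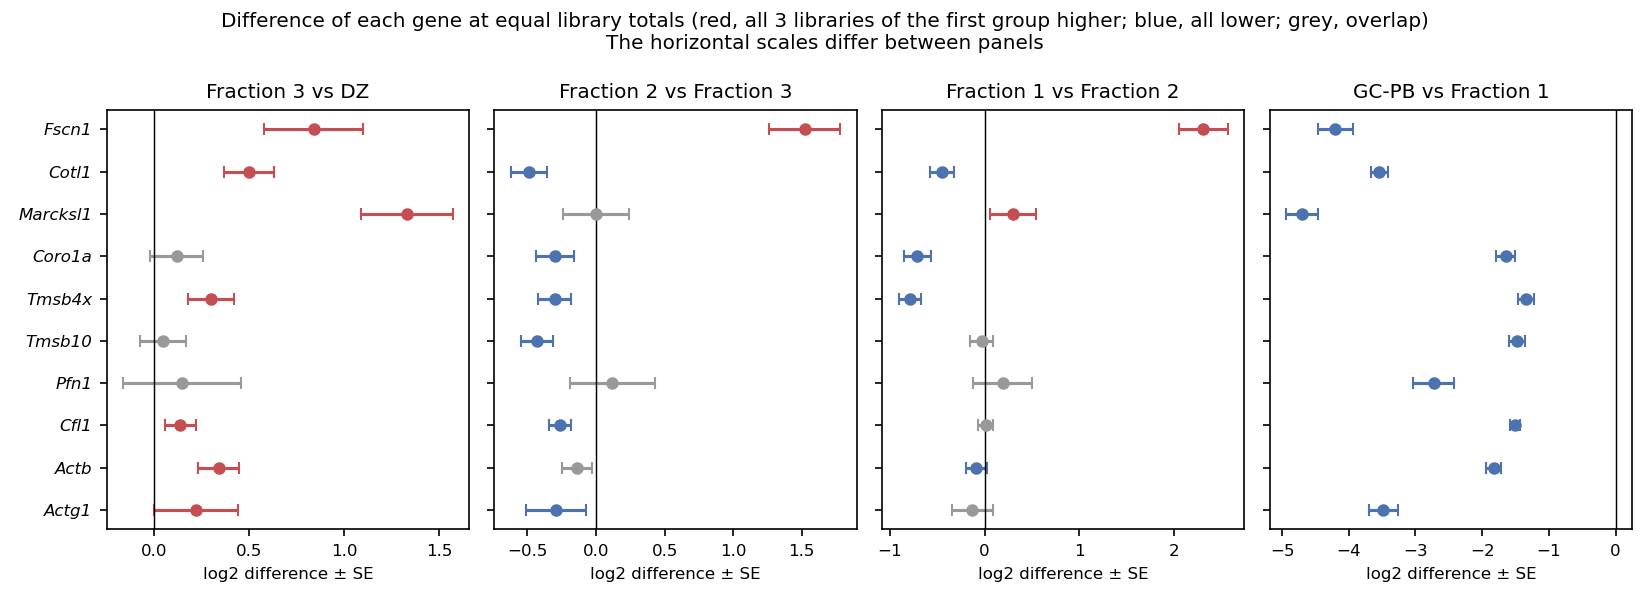
Difference of each gene in log2(level + 1) at equal library totals (horizontal axes, scaled to each panel) for the 4 comparisons; points are estimates and bars the SE from the fit over 15 libraries. Red and blue mark genes with all 3 libraries of the first group above or below all 3 of the second: 7 red in Fraction 3 against DZ, 6 blue in Fraction 2 against Fraction 3, and 10 blue in GC-PB against Fraction 1.

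The scale matters most between Fractions 2 and 1. On the deposited scale all 10 members were higher in Fraction 1, with a median difference of 1.38, from 0.66 for Tmsb4x to 3.52 for Fscn1. The median of all tested genes was 0.64 on that scale, with 6120 genes called higher and 63 lower. The 1 added before the log draws differences of low values toward 0. The median gene is thus not a like-for-like reference for the members on the deposited scale, here or below. At equal totals both medians were -0.06. Cotl1, Coro1a, Tmsb4x and Actb, whose libraries did not overlap at equal totals, changed sign between the scales, at 0.96, 0.73, 0.66 and 1.36 as deposited. So did Tmsb10 (-0.03 ± 0.12 at equal totals and 1.41 as deposited) and Actg1 (-0.13 ± 0.22 and 1.32), whose libraries overlapped. So relative to all RNA in the library the means of these 6 were lower in Fraction 1, and per deposited unit they were higher. The constant read as 1 molecule was 0.305 to 0.330 in Fraction 1 and 0.111 to 0.120 in Fraction 2. The libraries held 326122 to 376992 molecules in Fraction 1 and 335639 to 368603 in Fraction 2. Per the labels the same amount of spike-in RNA went into each tube, but the table holds no spike-in row. Whether the larger deposited totals stand for more RNA per cell or for a different scaling was not tested. In Fraction 2 against Fraction 3 the deposited values of Coro1a (0.12), Tmsb4x (0.13), Cfl1 (0.16) and Actg1 (0.13) were likewise above 0 where those at equal totals were below, beside 0.15 for the median gene, and so was that of Actb (0.29), whose libraries overlapped. Fscn1 kept its direction on all 3 scales in all 4 comparisons. In GC-PB against Fraction 1 every member was lower on all 3 scales, from -1.04 to -4.65 with median ratios, where the median gene stands at 0. The 7 plasma cell markers alone took 7430.4 to 10734 of each 100000 in GC-PB, and the median ratios do not use the library total. The part of these markers in the values of the members was not tested.

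**Figure D4:**
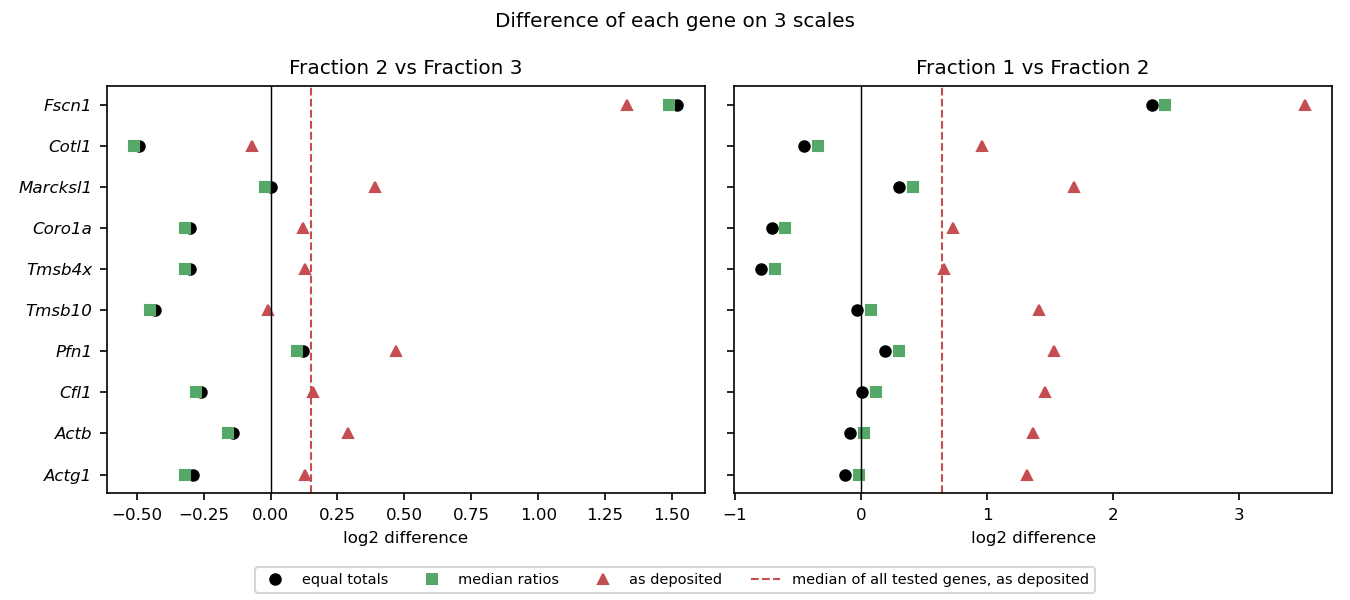
Difference of each gene in log2(value + 1) (horizontal axes) in Fraction 2 against Fraction 3 and Fraction 1 against Fraction 2 on 3 scales: equal library totals (circles), median ratios (squares) and as deposited (triangles); the dashed line is the median of all tested genes as deposited. In Fraction 1 against Fraction 2 all 10 triangles lie above 0, and Fscn1 is furthest to the right on every scale. The added 1 draws differences of low values toward 0, so the dashed line is not a like-for-like reference for the members.

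The actin machinery around the members was followed in 150 further genes of the table, listed by role, of which 118 were tested. They comprise the Arp2/3 complex that starts branched filaments, its activators and the formins, bundling proteins and membrane linkers, monomer-binding, severing and capping proteins, myosins and tropomyosins, and the muscle actins. A gene is said to rise or fall where its limma p, adjusted by Benjamini-Hochberg over the 11190 tested genes, was under 0.05. From DZ to Fraction 3, 2 of the 118 rose and 1 fell, beside 0.429% and 0.331% of all tested genes called higher and lower, and their median was 0.07. Vasp, which extends filaments at their tips, rose (0.88 ± 0.15, adjusted p = 0.00668), from 18.7 ± 0.705 to 35.7 ± 6.88. The formin gene Fmnl3 rose (0.95 ± 0.20, adjusted p = 0.024) and Ssh2, a phosphatase that activates cofilin, fell (-0.89 ± 0.20, adjusted p = 0.0394). The Fmnl3 call ended in 5 of 6 fits with 1 library left out, all but that without library 2 of DZ (adjusted p 0.0487 to 0.127) and the Ssh2 call in all 6 (0.0737 to 0.188), while the Vasp call held in all 6 (0.00994 to 0.0446) and ended in a fit of only the 6 libraries of the pair. From Fraction 3 to Fraction 2 none of the 118 rose or fell in limma, beside 0.277% and 0.143% of all tested genes, and 24 (20.3%) had an unadjusted p under 0.05, beside 10.7% of all tested genes.

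From Fraction 2 to Fraction 1, 16 of the 118 fell and none rose, beside 4.96% of all tested genes called lower and 2.89% called higher. Unadjusted, 42 of the 118 (35.6%) had a p under 0.05 in either direction, beside 20.5% of all tested genes. The median was -0.28, beside -0.06 over all tested genes. With 1 library left out, 9 to 14 were called, 9 without library 1 of Fraction 1 or library 2 of Fraction 2 and 10 without library 3 of Fraction 2. With only the 6 libraries of the pair 3 were called higher and 25 lower, beside 455 and 603 of all tested genes. On the deposited scale 73 were called higher and 1 lower, and with median ratios 1 higher and 12 lower, beside 433 and 387 of all tested genes against 323 and 555 at equal totals. The germinal centre marker sum was also lower in Fraction 1 (37.8 to 61.8) than in Fraction 2 (164 to 178), and its part in these values was not tested. The listed genes were not matched to other genes on level.

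By role, 6 of 30 tested bundling and linker genes fell from Fraction 2 to Fraction 1, 4 of 22 myosin and tropomyosin genes, 2 of 9 Arp2/3 subunits, 2 of 25 activators and formins, and 2 of 30 monomer, severing and capping genes. In the last group Gsn, which encodes the severing and capping protein gelsolin, fell from 7.40 ± 1.43 to 1.69 ± 0.228 (-1.63 ± 0.25, adjusted p = 0.000213), and Ssh2 fell again (-1.49 ± 0.20, adjusted p = 7.16e-05). Among Arp2/3 subunits Arpc5l fell (-1.14 ± 0.16, adjusted p = 7.16e-05), as did Actr2 (-0.48 ± 0.12, adjusted p = 0.0132). In the bundling and linker list, talin 1 (Tln1), which links filaments to integrins, fell by 0.96 ± 0.16 on the log2 scale (adjusted p = 0.000423), moesin (Msn), which links them to the membrane, by 0.71 ± 0.13 (adjusted p = 0.00173) and the coronin gene Coro7 by 1.23 ± 0.24 (adjusted p = 0.00261).

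Non-muscle myosin heavy chain Myh9 fell by 0.80 ± 0.16 (adjusted p = 0.00308), tropomyosin 4 (Tpm4) by 0.68 ± 0.17 (adjusted p = 0.0134) and the myosin light chain gene Myl6 by 0.39 ± 0.10 (adjusted p = 0.0179). Abi3, of the WAVE complex that activates Arp2/3, fell (-1.51 ± 0.30, adjusted p = 0.00275), and the formin gene Fmnl1 fell (-0.84 ± 0.25, adjusted p = 0.0404). Of the 12 named here, Fmnl1 lost its call whichever library was left out (adjusted p 0.0512 to 0.145), and Actr2 (0.0215 to 0.075), Tpm4 (0.0165 to 0.0839) and Myl6 (0.0207 to 0.0969) in 3 of 6 fits each. The 3 libraries were library 1 of Fraction 1 and libraries 2 and 3 of Fraction 2 for Actr2, library 1 of Fraction 1 and libraries 1 and 2 of Fraction 2 for Tpm4, and library 3 of Fraction 1 and libraries 2 and 3 of Fraction 2 for Myl6. With median ratios Myl6 and Fmnl1 also lost their calls, Fmnl1 further with a pseudocount of 0.5, with no filter and with the replicate block. On the deposited scale 8 of the 12 had the opposite sign, and Abi3, Coro7, Gsn and Ssh2 were still lower there but not called.

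From Fraction 1 to GC-PB, 44 of the 118 fell and 13 rose, beside 23.1% of all tested genes called lower and 14.0% called higher. With median ratios 38 were lower and 15 higher, beside 2001 and 2029 of all tested genes against 2580 and 1563 at equal totals. Their median was -0.23, beside -0.13 over all tested genes. Of the 9 Arp2/3 subunits 6 fell, among them Actr3 (from 89.96 ± 3.70 to 18.97 ± 3.40, difference -2.20 ± 0.12, adjusted p = 2.8e-12), Arpc2 (-1.54 ± 0.09, adjusted p = 7.63e-12) and Arpc4 (-1.25 ± 0.17, adjusted p = 3.71e-06), while Arpc1a rose (0.58, adjusted p = 0.028). Arpc1a is named here after its value was seen, as are the other risers except Ssh2. Of 25 activators and formins 8 fell and none rose in limma, with 9 (36.0%) at an unadjusted p under 0.05 in either direction, beside 44.4% of all tested genes. Examples are Hcls1, an Arp2/3 activator of blood cells (-1.89 ± 0.23, adjusted p = 8.78e-07), Fmnl3 (-1.54 ± 0.20, adjusted p = 2.5e-06) and Wipf1, a partner of WASP (-1.29 ± 0.20, adjusted p = 2.02e-05), all lower. Bundling and linker genes fell in 13 cases of 30 and rose in 5. L-plastin (Lcp1), the filament bundler of blood cells, fell from 106 ± 1.88 to 9.28 ± 6.29 (-3.58 ± 0.26, adjusted p = 2.86e-10), and Swap70, which binds filaments in activated B cells, fell (-2.30 ± 0.14, adjusted p = 2.98e-11). Evl, of the same family as Vasp, fell to 1 molecule in the 3 GC-PB libraries from 104 in Fraction 1, a ratio of 57.01 with a counting interval of 10.01 to 2273 (adjusted p = 4.65e-11). The 5 that rose were Coro2b, Rdx, Vcl, Zyx and Tln1. Vcl rests on 9 molecules in GC-PB against 1 in Fraction 1, with a counting interval of 2.27 to 720 for the ratio. Zyx rests on 19 against 7 (1.99 to 13.9). On the deposited scale the differences of Arpc1a (-0.04) and Tln1 (-0.10) had the opposite sign.

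Monomer, severing and capping genes fell in 10 cases of 30 and rose in 4. Wdr1 (-2.08 ± 0.21, adjusted p = 4.41e-08) and the capping protein subunit Capzb (-1.17 ± 0.15, adjusted p = 2.28e-06) fell, and Ssh2 rose (1.50 ± 0.20, adjusted p = 3.65e-06), as did Capg, Tmod1 and Tmsb15b2. The Tmsb15b2 call (adjusted p = 0.0468) rests on 3.3 molecules against 0.3, and the counting interval of its ratio starts at 0.754 and so includes no difference. Myosin and tropomyosin genes fell in 7 cases of 22 and rose in 3 (Myl12b, Myo18a and Myo5a, the last at 0.01 on the deposited scale, adjusted p = 0.989), with Myo1g (-2.34 ± 0.18, adjusted p = 7.51e-10), Tpm4 (-2.11 ± 0.17, adjusted p = 1.28e-09) and Tpm3 (-1.39 ± 0.12, adjusted p = 4.85e-09) all lower. Every gene named here in GC-PB against Fraction 1, apart from the risers other than Ssh2, kept its sign and its call in all fits tried. Those other risers were not followed gene by gene with a library left out. Of the muscle actin genes 2 were tested and neither was called in any comparison.

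**Figure D5:**
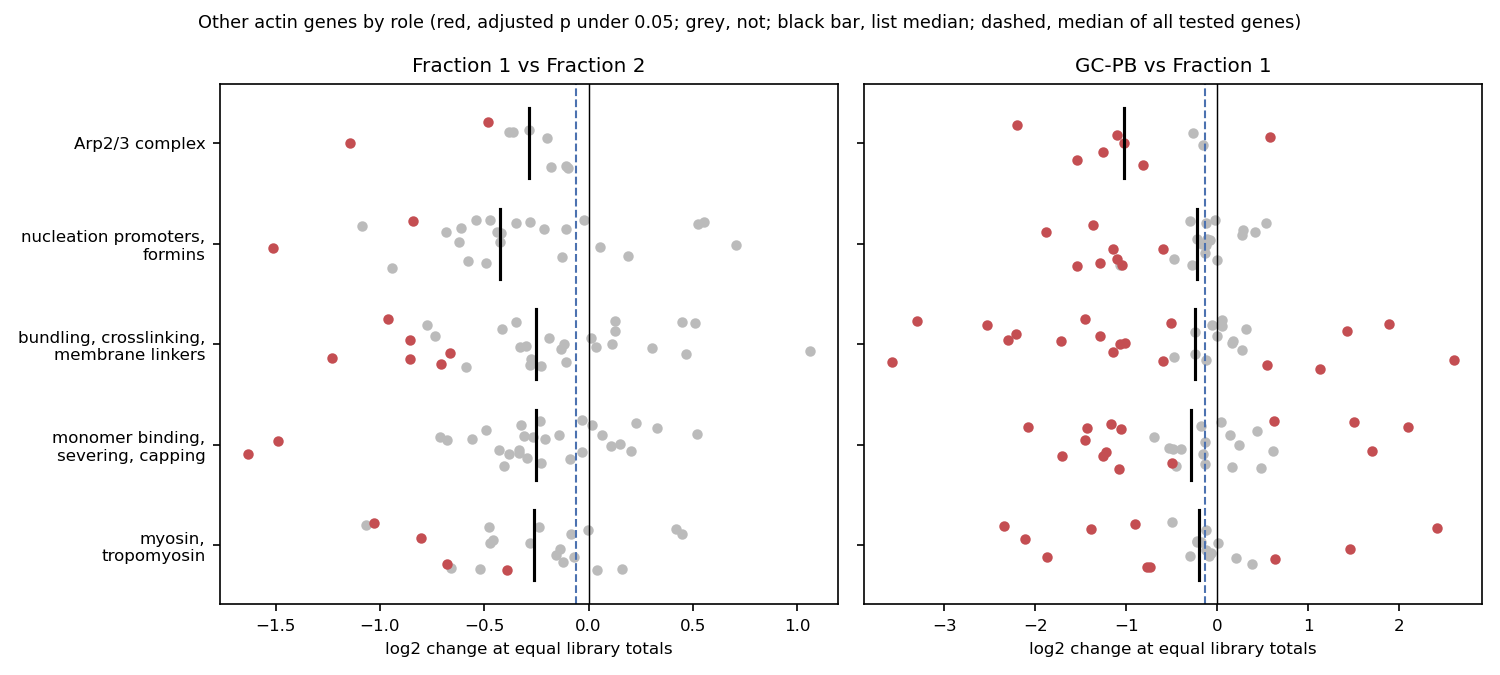
log2 change of each tested actin gene outside the 10 members at equal library totals (horizontal axes), by role, in Fraction 1 against Fraction 2 and GC-PB against Fraction 1; red points passed an adjusted p of 0.05 in limma, grey ones did not, the black bar is the list median and the dashed line the median of all tested genes. All red points on the left lie below 0, and on the right 44 lie below 0 and 13 above.

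In 3 lists the summed markers of other cells were higher in GC-PB, mainly through Ly6c2, Cd28 and Cst3. The macrophage and monocyte list (10 genes) summed to 275 to 719 in GC-PB and at most 2.27 elsewhere, with Ly6c2 at a mean of 452 as nearly all of it and Csf1r, Emr1, Itgam, Lyz2 and Mertk at 0. The T cell list (10 genes) summed to 25.2 to 29.6 in GC-PB and 4.50 to 15.2 elsewhere, with Cd28 at 25.7. The dendritic cell sums are given beside Fscn1. In GC-PB 8 of the 12 genes of that list were at 0, and Cst3, with a mean of 47.2, was most of the sum. The neutrophil list (6 genes) was at 0.319 or less in every library. The stromal list (14 genes) summed to 0.51 to 3.88 and the erythroid and platelet list (8 genes) to 0 to 20.5, highest in Fraction 3. The part of these cells in the values of the members was not tested. The B cell list (8 genes) summed to 531 to 594 in DZ, 596 to 651 in Fraction 3, 449 to 485 in Fraction 2, 235 to 273 in Fraction 1 and 147 to 194 in GC-PB.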

How the data were processed

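The deposited table gives a signal for each gene in 15 libraries. Per the labels' protocols, the authors added ERCC spike-in RNA for normalisation, fragmented the RNA, tagged cDNA from the poly(A) end with molecular barcodes and amplified it by template switching and PCR. TopHat2 (version not given) and mm10 are named in the submitters' processing notes; the counting rule and scaling are not given in the sources used here. In each library 91.0% to 92.5% of the values above 0 were whole multiples, within 0.02, of 1 constant (0.105 to 0.362), taken here as 1 molecule, and 9185 to 10132 genes were above 0.

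Values were divided by the library total without Rn45s and scaled to 100000. Genes needed a value above 0 in at least 3 libraries, which left 11190, and their log2(value + 1) entered 1 limma fit (version 3.58.1, R 4.3.3, trended variance) with a mean for each of the 5 groups. Its p-values are two-sided, adjusted by Benjamini-Hochberg. The fit was checked on simulated data. Overlap compares the 3 libraries of each group. Ratios of molecules have 95% exact binomial intervals (scipy 1.17.1), which cover counting error only. Figures used matplotlib 3.10.9 in Python 3.11.15, positions GENCODE and promoters RefSeq.

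The members, lists and alternatives were chosen with earlier results of these data known. Named were all 10 members, from each list and comparison up to 3 called genes with the smallest adjusted p, the 5 genes most like Fscn1 and the 2 most like each other member by Pearson r over 15 libraries among genes with at least the median level, and cell type markers. Alternatives were the deposited scale, totals with Rn45s, median ratios, a pseudocount of 0.5 or 2, no filter, values above 0 in at least 12 libraries, only the 6 libraries of a pair, a replicate block, and leaving out each library. Of the lists, 1 gene list and 1 marker gene are not reported here.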

Additional observations from a re-analysis of the deposited data

How the results depend on the processing

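Of 600 refitted differences of the 10 members, 22 changed sign: 9 where the libraries of the pair did not overlap, 8 of these on the deposited scale, and 13 where they overlapped, 4 of these on the deposited scale. Leaving out 1 library moved 1 ratio of member means by over 1.5-fold, that of Marcksl1 in GC-PB against Fraction 1 (149.5-fold lower without GC-PB library 2). Among members without overlap the deposited scale reversed Coro1a (0.122), Tmsb4x (0.126), Cfl1 (0.164) and Actg1 (0.126) in Fraction 2 against Fraction 3, and Cotl1 (0.964), Coro1a (0.732), Tmsb4x (0.663) and Actb (1.362) in Fraction 1 against Fraction 2, where median ratios also reversed Actb (0.018). Among members with overlap it turned Tmsb10 in Fraction 3 against DZ (-0.025), Actb in Fraction 2 against Fraction 3 (0.287), and Tmsb10 (1.409) and Actg1 (1.317) in Fraction 1 against Fraction 2. In Fraction 1 against Fraction 2 it also reversed Actr2 (0.938), Arpc5l (0.252), Fmnl1 (0.428), Msn (0.700), Myh9 (0.593), Myl6 (1.035), Tln1 (0.398) and Tpm4 (0.718). That scale does not divide by the library total; any further cause was not tested.

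Calls over all genes went from 85 to 27 in Fraction 3 against DZ on the deposited scale and also with only the 6 libraries of the pair. In Fraction 2 against Fraction 3 they went from 47 to 301 as deposited, 90 for genes above 0 in at least 12 libraries and 0 with only the pair. As deposited they went from 878 to 6183 in Fraction 1 against Fraction 2 and from 4143 to 6380 in GC-PB against Fraction 1. Calls among the 118 actin genes went from 3 to 1 as deposited, 5 with a pseudocount of 2, 5 for genes above 0 in at least 12 libraries and 0 with only the pair in Fraction 3 against DZ. In Fraction 2 against Fraction 3 they went from 0 to 1 with a pseudocount of 2, and in Fraction 1 against Fraction 2 from 16 to 74 as deposited and 28 with only the pair. With 1 library left out, calls over all genes and actin genes were 16 to 68 and 1 to 2 in Fraction 3 against DZ (lowest without DZ library 1), 9 to 31 and 0 each time in Fraction 2 against Fraction 3 (9 without Fraction 2 library 2), 462 to 573 and 9 to 14 in Fraction 1 against Fraction 2 (462 without Fraction 2 library 2, 9 without Fraction 1 library 1 or Fraction 2 library 2), and 3539 to 3963 and 51 to 57 in GC-PB against Fraction 1. Fits without a library have fewer samples.

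Correlations of the deviations of same-numbered libraries from their group means were -0.023 to 0.0204. In the 4 comparisons 4, 2, 0 and 2 of the 6 libraries had their highest such correlation with their own number. The deviations hold the counting error of many genes with low levels, so these values cannot tell whether same-numbered libraries share an origin. With the replicate block, calls over all genes and actin genes were 67 and 2, 35 and 0, 809 and 16, and 4128 and 57 in the 4 comparisons; among named genes it ended the calls of Ssh2 in Fraction 3 against DZ and Fmnl1 in Fraction 1 against Fraction 2.

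Depth limits Fscn1 in DZ (6 molecules) and GC-PB (8), and Marcksl1 (4), Cotl1 (13) and Pfn1 (15) in GC-PB. Their ratios are known only within the counting intervals.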
